A study of Mus musculus with 12 samples.

Results

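The comparison asked what the absence of Tlr9 adds to the skin response to imiquimod when Tlr7 is already absent. Its value for each gene is a difference of differences: the response of Tlr7-/-Tlr9-/- ear skin (4 h after imiquimod minus untreated) minus the response of Tlr7-/- ear skin. It uses 5 of the 12 arrays of the series, chosen by their labels: 1 untreated and 1 imiquimod array of Tlr7-/- mice, and 1 untreated and 2 imiquimod arrays of Tlr7-/-Tlr9-/- mice. All mice were C57BL/6J, and every group lacks Tlr7, the untreated groups included. Imiquimod was given once to both ears as 62.5 mg of a cream holding 5% of the drug, and whole ear skin was taken after 4 h. The series has no group that received the cream base alone.

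TLR7 and TLR9 are sensors of nucleic acid in the endosome. TLR7 binds single-stranded RNA and small imidazoquinolines such as imiquimod, TLR9 binds DNA rich in unmethylated CpG, and both signal through the adaptor MYD88 to NF-kB, AP-1 and the interferon regulatory factors. In skin they are best known from plasmacytoid dendritic cells, which make type I interferon when either receptor is engaged. Both receptors need the chaperone UNC93B1 to reach the endosome, which is a known point of competition between them.

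Each array was hybridized with RNA pooled from 6 to 8 mice, so 1 array is 1 pool, and the age and sex of the mice are not given in the sources used here. Only Tlr7-/-Tlr9-/- after imiquimod has 2 arrays, and the other 3 groups have 1 each. Those 2 arrays differed by less than the spots within an array. Over 300 probes printed at least 8 times, the median SD was 0.0331 between the 2 arrays for a single spot and 0.0489 between spots on 1 array (log2 signal). They may therefore hold 1 pool, that is 1 sample of mice, which the labels do not settle. The fit had to take its spread from them and from the 2 imiquimod arrays of Card14-/-. Every p-value below thus measures the spread between repeat arrays and not between mice. The untreated arrays and the imiquimod array of Tlr7-/- lay on 1 slide and both imiquimod arrays of Tlr7-/-Tlr9-/- on the other, so the slide and the treated double knockout cannot be told apart. The other slide also carried the imiquimod arrays of Card14-/-, which allows a check by genotype given beside the results. Of the 5 arrays the untreated ones were the brighter, with a 75th percentile of 1191 and 1236 units of processed signal against 616 to 703 after imiquimod. Over the 12 arrays 60.1% to 65.7% of spots were well above background.

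The pools also differed in sex-linked RNA, and this bears on the Tlr7-/- pair most of all. All levels below are log2 signals, quantile normalized between arrays. Eif2s3y, a Y-linked gene expressed in male tissue, was at 2.03 (below background) on the untreated Tlr7-/- array, at 11.04 on the imiquimod Tlr7-/- array, at 10.27 on the untreated Tlr7-/-Tlr9-/- array, and at 11.01 and 11.02 on the imiquimod Tlr7-/-Tlr9-/- arrays. Xist, the RNA that silences 1 X chromosome in female cells, was at 7.89 on the untreated Tlr7-/- array and at 1.91 (below background) on its imiquimod array, against 6.78 untreated and 4.86 and 4.72 after imiquimod in Tlr7-/-Tlr9-/-. In the Tlr7-/- pair the Y-linked gene was thus found only after imiquimod and Xist only before it, while every Tlr7-/-Tlr9-/- array had both. The Y-linked genes Uty and Ddx3y behaved like Eif2s3y, at 2.01 and 1.91 on the untreated Tlr7-/- array and at 7.83 and 7.30 on the imiquimod one. Kdm5d, also Y-linked, did so on 3 of its 4 probes, while the brightest, on which the gene was read, went from 7.23 to 6.55. The response of Tlr7-/- is therefore a comparison of pools that differ in sex-linked RNA as well as in treatment, and sex and treatment cannot be told apart in it.

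The targeted genes were read on the same arrays. Tlr7, on the probe at X 163742863 to 163742922 (mm9), was at 5.49 untreated and at 4.03 (below background) after imiquimod in Tlr7-/-, and at 5.34, 5.85 and 5.68 in Tlr7-/-Tlr9-/-, against 7.36 to 8.12 on the 7 arrays of genotypes with Tlr7. Its difference passed the test on this probe (at least 3.42-fold) but was -0.31 on the other, and after normexp background correction (0.64) and in the deposited table (0.89) it no longer passed. Tlr9, on the probe at 9 106128979 to 106129038, was at 11.05 and 11.18 in Tlr7-/- and at 11.08, 11.33 and 11.28 in Tlr7-/-Tlr9-/-. Over all 12 arrays it ran from 10.95 to 11.39, with Tlr9-/- and WT inside that range, so this probe checks nothing about the deletion.

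**Figure D1:**
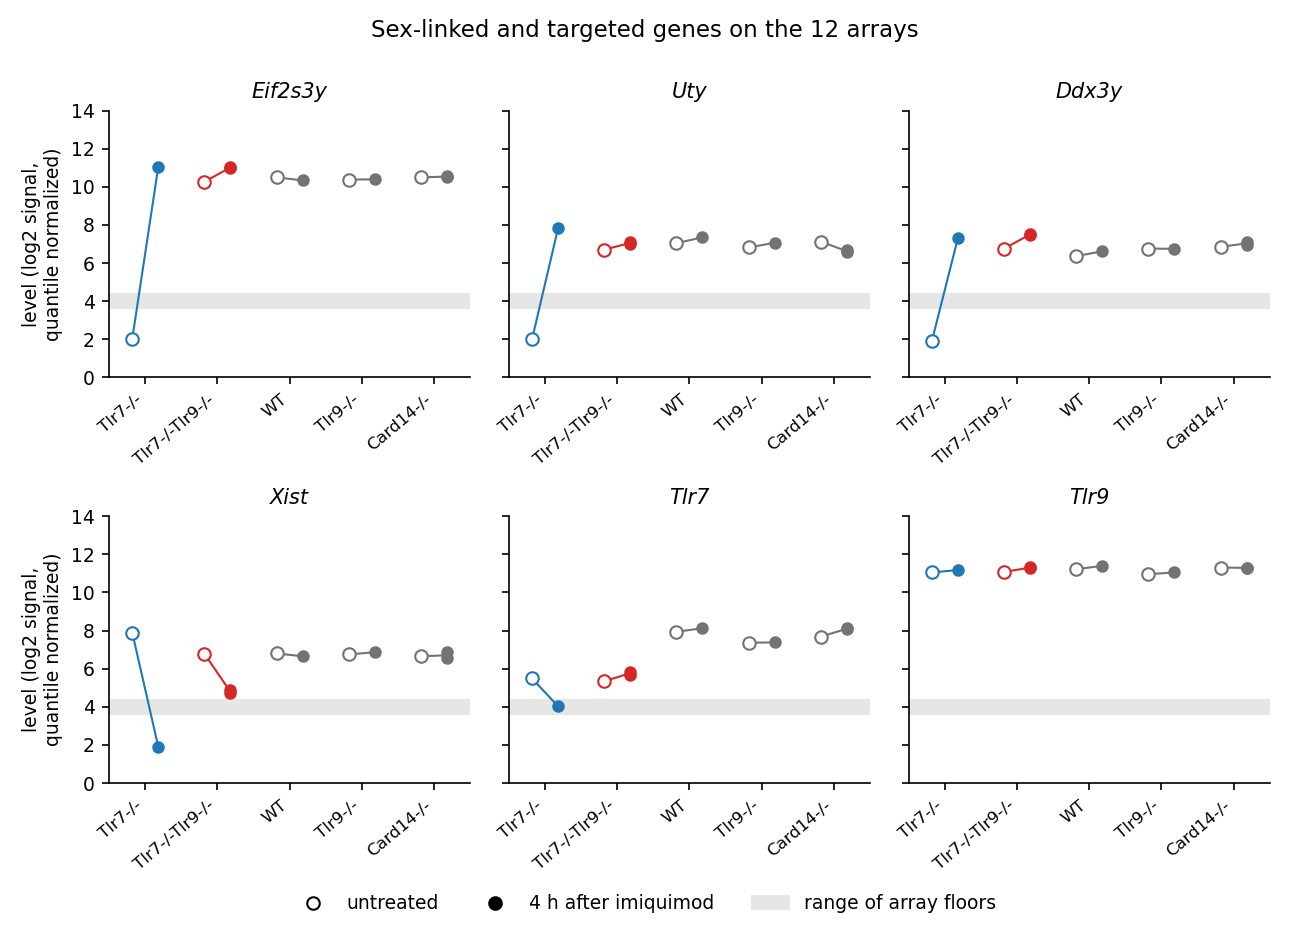
Levels of 3 Y-linked genes, Xist, Tlr7 and Tlr9 on the 12 arrays, as log2 signal, with open circles for untreated and filled circles for imiquimod arrays, 1 circle per array, and lines joining the group means of a genotype. The grey band spans the lowest log2 values of probes well above background, 3.63 to 4.38; Eif2s3y, Uty and Ddx3y lie under it only on the untreated Tlr7-/- array and Xist only on the imiquimod Tlr7-/- array.

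Of 24080 genes tested, 618 (2.57%) responded higher in Tlr7-/-Tlr9-/- than in Tlr7-/-, and 487 (2.02%) responded lower. A gene counts as such a rise or fall at a Benjamini-Hochberg adjusted p under 0.05 in limma and a size of 1 or more in log2 units. A rise can be a larger increase or a smaller decrease. Among genes above background on all 5 arrays the rises were led by the hair shaft, with all 12 of the largest measured rises in keratin-associated protein genes and 34 of the 50 largest in hair genes, followed by stress and antimicrobial genes of keratinocytes. Among such genes the largest named fall was that of the chemokine Ccl3, and the falls held a few members of the collagen, muscle and clock lists. Of 39 interferon-stimulated genes 0 passed. In either direction 4.59% of all genes were called, and 2.95% of the 15946 genes with a gene name. The difference was positive in 12661 of the 24080. Counts of called and of positive list members below are to be read against these. Over all genes, 34.4% (8289) had an unadjusted p under 0.05 in limma, the share against which such counts below are to be read.

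The test rests on how far repeat arrays differ. The median SD was 0.0469 between the repeat Tlr7-/-Tlr9-/- arrays and 0.261 between the responses of the other 3 genotypes (WT, Tlr9-/- and Card14-/-). With the spread taken from those 3 responses, limma called 0 genes (960 at an unadjusted p under 0.05, smallest adjusted p 0.21). With either imiquimod Tlr7-/-Tlr9-/- array left out, or with only the 5 arrays in the fit, limma also called 0 genes, where 1 residual degree of freedom is left. The values below thus describe these pools, and a rise or a fall means a difference larger than that between repeat arrays.

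Where the difference lies was found by splitting it into the double knockout minus Tlr7-/- on the imiquimod arrays and the same on the untreated arrays, the difference of responses being the first minus the second. On the imiquimod arrays 495 genes (2.06%) were higher and 696 (2.89%) lower in Tlr7-/-Tlr9-/-. Scaled to the 75th percentile, those became 326 and 977, so that this split follows the scaling. On the untreated arrays 34 (0.141%) were higher and 149 (0.619%) lower. Of the 618 rises, 250 (40.5%) had the larger part in the untreated arrays, against 36.1% of all genes. Of the 487 falls, 50 (10.3%) did. Scaled to the 75th percentile, the response difference had 499 rises and 581 falls.

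Slide and responses were set side by side. In 390 of the 487 falls (80.1%), the responses of Tlr7-/-Tlr9-/- and Card14-/-, whose imiquimod arrays shared a slide, both lay below those of the other 3 genotypes, a pattern found in 19.7% of all genes. In 332 of the 618 rises (53.7%) both lay above, against 25.9% of all genes. The rule already sets the Tlr7-/-Tlr9-/- response apart from that of Tlr7-/-, which fixes part of both shares, so they are a description, and the part of the slide was not tested. In 424 rises (68.6%, against 14.9% of all genes) the response of Tlr7-/- was the lowest of the 5 genotypes. The use of that response in both the rule and the count fixes part of this share, and it is given as a description.

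**Figure D2:**
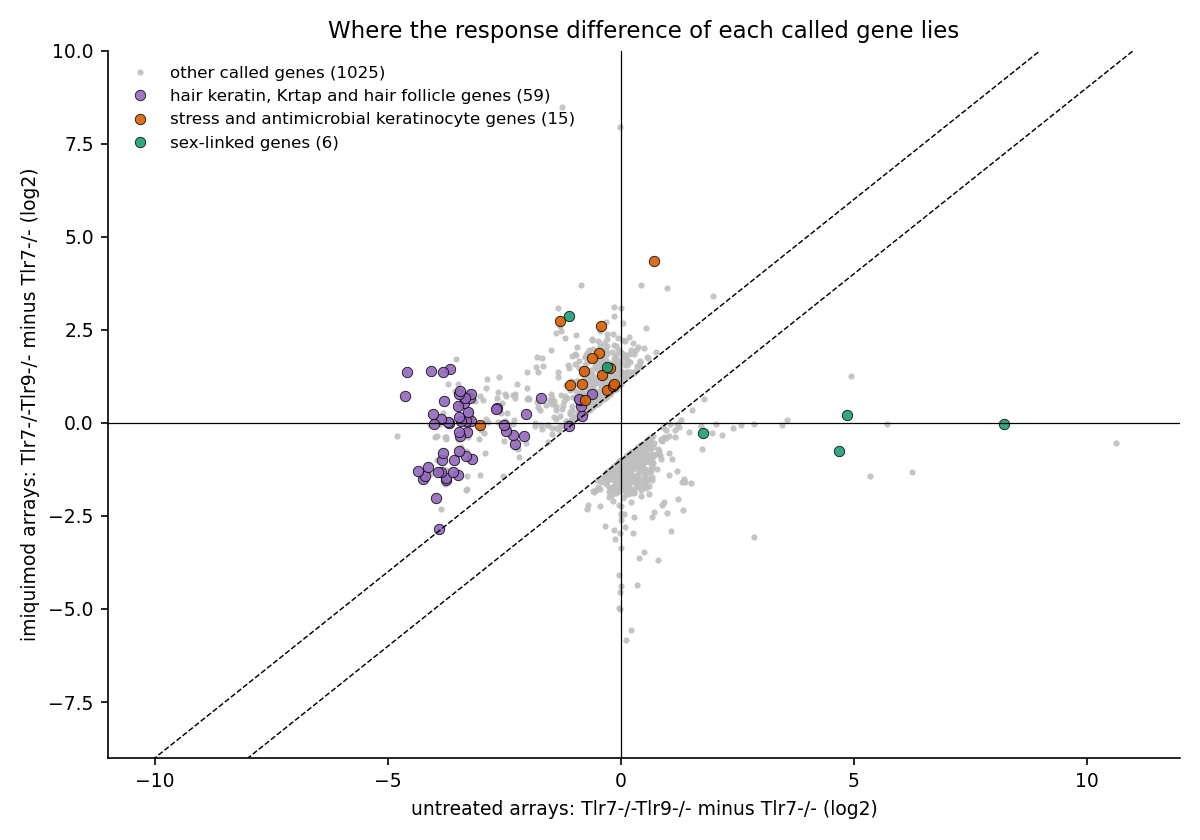
Each point is 1 of the 1105 called genes, with the untreated part of its difference (Tlr7-/-Tlr9-/- minus Tlr7-/-, log2) on the horizontal axis and the imiquimod part on the vertical axis; the dashed lines mark a response difference of 1 in either direction. Most hair genes (purple, 59 points) lie far to the left near zero height, the stress keratinocyte genes (orange, 15 points) mostly lie above zero close to the vertical axis, and most falls lie below zero close to it.

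Hair shaft and inner root sheath genes made the largest rises among named genes above background on all 5 arrays. These genes are made by the growing hair bulb: keratin-associated proteins cross-link the hair keratins of the shaft, while the inner root sheath that moulds it uses its own keratins and trichohyalin. Krtap19-3, a small glycine- and tyrosine-rich keratin-associated protein gene read on the probe at 16 88877886 to 88877945, was at 10.71 untreated and 6.999 after imiquimod in Tlr7-/-, and at 6.12 untreated and 8.36 and 8.38 after imiquimod in Tlr7-/-Tlr9-/-. The untreated Tlr7-/- array was the highest and the untreated Tlr7-/-Tlr9-/- array the lowest of the 5, so the 2 genotypes moved in opposite directions. The response difference was 5.96 ± 0.06 (SE, adjusted p = 0.00491), made of 1.37 on the imiquimod arrays and -4.59 on the untreated ones. Krtap16-3 had the same order, with 13.80 and 9.89 in Tlr7-/- against 9.73, 11.26 and 11.34 in Tlr7-/-Tlr9-/- (difference 5.48 ± 0.11, adjusted p = 0.0083). Krtap14 (5.35), Krtap19-2 (5.19), Krtap19-9b (5.12), Krtap8-1 (4.39), Krtap22-2 (4.30), Krtap1-5 (4.25), Krtap6-5 (4.01), Krtap3-3 (3.98), Krtap9-3 (3.97) and Krtap2-4 (3.96) complete the 12 largest. Over the family, a list added after the data were seen, 40 of 53 rose and 0 fell, with a median difference of 3.05 against 0.02 over all genes. Near-identical family members can share a probe's signal, so these are not 40 independent readings.

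Hair shaft keratins rose in 8 of 15, with a median of 2.41. Krt31, a type I hair keratin, was at 12.26 and 8.63 in Tlr7-/- and at 8.81, 8.27 and 8.30 in Tlr7-/-Tlr9-/-. Its level thus fell steeply in the first genotype and little in the second, toward almost the same endpoint, and the difference was 3.10 ± 0.07 (adjusted p = 0.0083). Krt86 (3.00), Krt33a (2.77), Krt83 (2.71), Krt34 (2.59) and Krt81 (2.41) also rose. Krt85, a keratin of the hair matrix and early cortex, had 0.25 and did not pass. The responses behind the list were a median of -4.71 in Tlr7-/- and -1.70 in Tlr7-/-Tlr9-/-, and 13 and 10 of the 15 fell in their own genotype's response (background 3.63% and 2.23% of all genes).

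Inner root sheath genes rose in 7 of 11, with a median of 2.84. Krt28 was at 12.998 and 7.60 in Tlr7-/- and at 9.28, 7.67 and 7.57 in Tlr7-/-Tlr9-/-. On the imiquimod arrays the 2 genotypes differed by 0.03, and the difference of 3.74 ± 0.10 (adjusted p = 0.0107) lay almost wholly in the untreated arrays. Krt27 was at 13.60 and 6.87 against 10.14, 6.68 and 6.55, a difference of 3.21 ± 0.11 (adjusted p = 0.0155). Tchhl1 (3.05) and Tchh, trichohyalin (2.59), did the same. Krt71, another sheath keratin, responded by -7.21 in Tlr7-/- and -7.23 in Tlr7-/-Tlr9-/-, with 1 imiquimod array of the latter below background, and its difference of -0.03 did not pass. Of the 38 follicle regulators and matrix genes 4 rose and 0 fell, a larger share of rises than the 2.57% of all genes. In limma 21 of the 38 had an unadjusted p under 0.05, against 34.4% of all genes, and the list median was 0.27. S100a3, a hair cuticle protein, rose by 1.73 and Lrrc15 by 2.26. The other rises, Dsg4 and Fgf5, were too close to background for a size.

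Across these 3 groups, 54 of the 55 rises had their larger part in the untreated arrays. The untreated Tlr7-/- array was the highest of the 5 untreated arrays in 53, and the untreated Tlr7-/-Tlr9-/- array the lowest in 53, against 15.5% and 17.0% of all genes. The call uses both arrays, so these ranks are partly fixed by it and are a description. All 55 had their lowest response in Tlr7-/-, and only 3 showed the pattern of the slide. The median level of the hair shaft keratins was 11.59 on the untreated Tlr7-/- array and 8.11 on the untreated Tlr7-/-Tlr9-/- array, with 9.84, 10.25 and 9.57 on those of WT, Tlr9-/- and Card14-/-. Follicle content was not measured, and fewer follicles in growth and less RNA per follicle cannot be told apart in whole skin. Genotype and the sex-linked difference between pools cannot be told apart either, nor can treatment and that difference in the Tlr7-/- response.

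**Figure D3:**
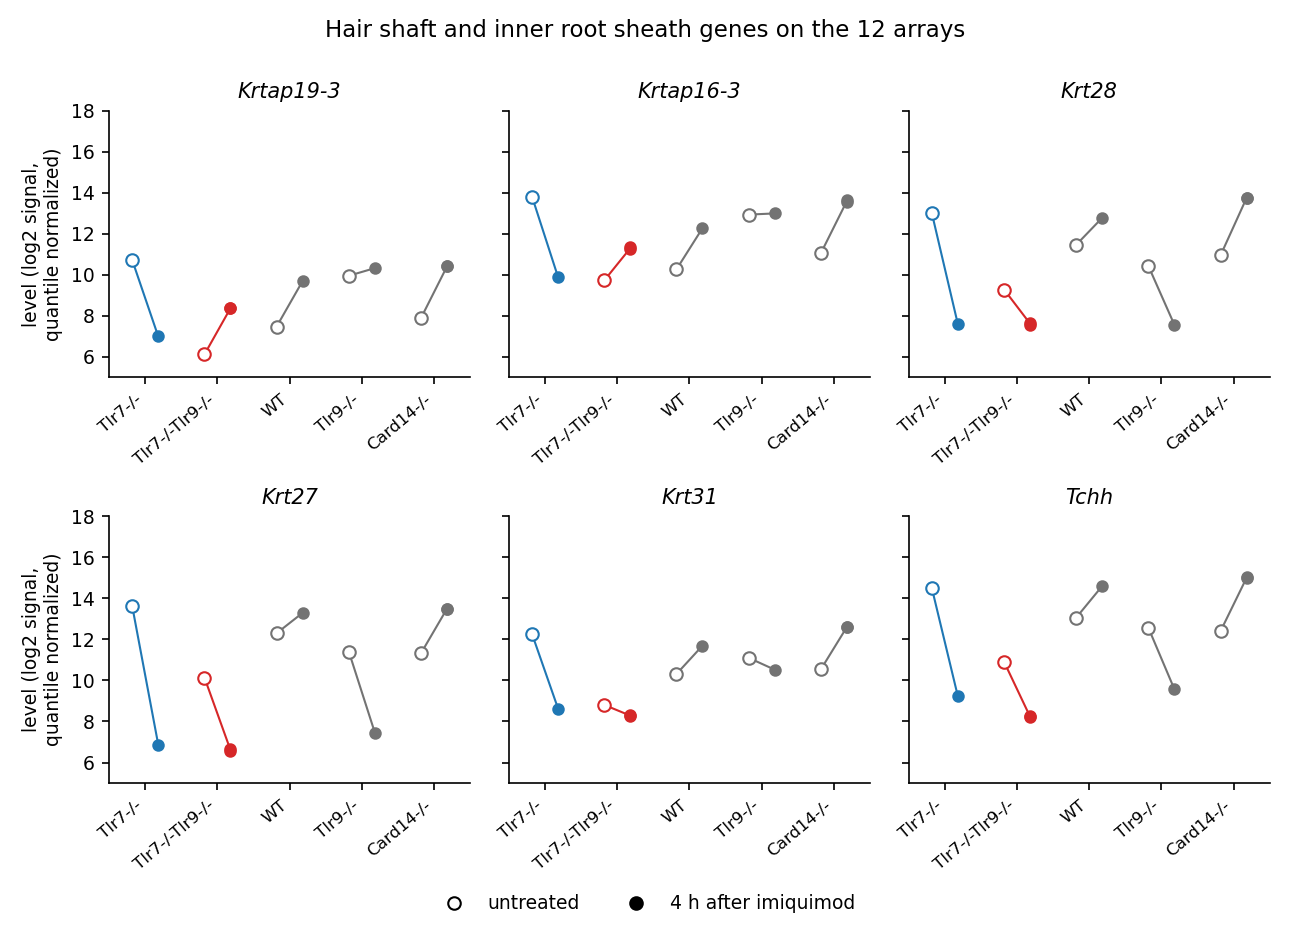
Levels of 6 hair genes on the 12 arrays as log2 signal, with open circles for untreated and filled circles for imiquimod arrays and lines joining group means. In Tlr7-/- (blue) all 6 start high and end low, Krtap19-3 from 10.71 to 6.999; in Tlr7-/-Tlr9-/- (red) they start low, and the genotypes differ more before than after imiquimod.

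Stress and antimicrobial genes of keratinocytes formed the largest group of rises that lay in the imiquimod arrays. These genes, the small proline-rich proteins, late cornified envelope 3 proteins, keratins 6 and 16 and the alarmins S100A8 and S100A9, are made by wounded or inflamed epidermis and are raised in psoriasis. Of 32 tested, 15 rose and 0 fell, with a median difference of 1.06 against 0.02 over all genes. The median was 0.81 on the imiquimod arrays and -0.26 on the untreated arrays. The list's median response was -1.08 in Tlr7-/- and 0.05 in Tlr7-/-Tlr9-/-, with 17 members falling in the former and 3 in the latter.

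Some promoters of these genes hold an AP-1 motif, though most do not. The AP-1 motif TGANTCA, which the FOS and JUN factors bind, was found in 6 of the 14 promoters of rises on this list (42.9%) and in 8 of 25 on the whole list (32%), against 7.93% of 27025 mouse promoters of the same length. It was in 10.4% of the promoters of all rises and 7.84% of those of falls. Each promoter runs from 250 bases before to 50 after the gene's start, both strands read the same motif, and a match is a description of these letters only. The promoters of 3 Sprr2 genes, of Sprr1b and of the cytokine Il1a are given 5′ to 3′ from RefSeq (GRCm38.p6), with the motif in capitals, because they stand close together on chromosome 3 or, for Il1a, next to the start.
Sprr2d: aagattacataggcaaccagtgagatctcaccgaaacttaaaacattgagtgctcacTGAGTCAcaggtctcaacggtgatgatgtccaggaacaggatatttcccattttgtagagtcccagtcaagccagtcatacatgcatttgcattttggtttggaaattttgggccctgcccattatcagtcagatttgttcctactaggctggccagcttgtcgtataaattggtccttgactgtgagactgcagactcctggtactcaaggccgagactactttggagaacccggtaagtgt
Sprr2e: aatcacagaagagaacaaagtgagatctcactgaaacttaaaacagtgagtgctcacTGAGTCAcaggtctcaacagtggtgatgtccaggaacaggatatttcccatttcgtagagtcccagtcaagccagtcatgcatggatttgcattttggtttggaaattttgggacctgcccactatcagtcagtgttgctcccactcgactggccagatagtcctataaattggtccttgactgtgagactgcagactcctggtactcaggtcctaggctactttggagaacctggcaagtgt
Sprr2f: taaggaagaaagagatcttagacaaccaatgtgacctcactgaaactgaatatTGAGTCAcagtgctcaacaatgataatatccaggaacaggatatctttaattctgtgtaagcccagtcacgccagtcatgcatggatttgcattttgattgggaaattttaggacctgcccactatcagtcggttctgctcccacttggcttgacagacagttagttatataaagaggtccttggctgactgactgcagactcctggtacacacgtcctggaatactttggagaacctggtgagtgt
Sprr1b: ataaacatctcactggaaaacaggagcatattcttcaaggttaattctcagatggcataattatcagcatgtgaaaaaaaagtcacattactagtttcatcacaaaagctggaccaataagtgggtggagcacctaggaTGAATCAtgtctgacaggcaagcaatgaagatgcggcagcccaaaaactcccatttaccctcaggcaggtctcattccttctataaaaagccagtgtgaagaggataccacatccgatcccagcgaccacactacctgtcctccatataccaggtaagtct
Il1a: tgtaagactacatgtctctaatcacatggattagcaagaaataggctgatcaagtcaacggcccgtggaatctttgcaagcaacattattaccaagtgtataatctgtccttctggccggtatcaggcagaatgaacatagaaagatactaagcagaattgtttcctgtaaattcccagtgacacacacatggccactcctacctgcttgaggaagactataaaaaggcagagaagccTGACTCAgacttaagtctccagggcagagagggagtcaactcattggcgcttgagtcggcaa
They lie at chr3:92338890-92339189 (plus strand), chr3:92351893-92352192 (plus strand), chr3:92364937-92365236 (plus strand), chr3:92438730-92439029 (minus strand) and chr2:129309923-129310222 (minus strand). The motif begins 193 bases before the start in Sprr2d and Sprr2e, 197 in Sprr2f, 111 in Sprr1b and 12 in Il1a. Sprr2d and Sprr2e share 264 of 300 aligned bases, and Sprr2d, Sprr2e, Sprr2f and Sprr2h are copies of 1 gene family, so their motifs are not independent observations.

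Krt6b, a keratin induced in wounded and hyperproliferative epidermis and read at 15 101506492 to 101506551, showed the widest gap of the list on the imiquimod arrays. It was at 11.53 untreated and 7.16 after imiquimod in Tlr7-/-, and at 12.25 untreated and 11.52 and 11.50 after imiquimod in Tlr7-/-Tlr9-/-. The imiquimod Tlr7-/- array stood alone at the bottom, and the difference was 3.63 ± 0.11 (adjusted p = 0.0144), from 4.35 on the imiquimod arrays minus 0.72 on the untreated ones. Krt6b varied between untreated pools as well, from 10.33 in Card14-/- to 13.40 in WT. Krt6a (0.66), Krt16 (0.88) and Krt17 (-0.03), keratins of the same epidermal state, stayed under the size limit.

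Sprr1b, a cross-linked envelope protein, was at 12.45 and 11.24 in Tlr7-/- and at 11.66, 12.61 and 12.65 in Tlr7-/-Tlr9-/-. It decreased in one genotype and increased in the other, with a difference of 2.18 ± 0.07 (adjusted p = 0.0144). Sprr2e was at 8.63 and 6.33 against 8.01, 8.06 and 8.06, so that only the imiquimod Tlr7-/- array was low, with a difference of 2.35 ± 0.10 (adjusted p = 0.0197). Sprr2f was below background on that array and its difference was at least 14.5-fold. Sprr2i (2.34), Sprr2h (1.87) and Sprr2d (1.69) rose too. The family can share signal between near-identical copies.

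Lce3a was at 9.23 and 5.82 in Tlr7-/- and at 8.82, 8.35 and 8.50 in Tlr7-/-Tlr9-/-, a difference of 3.03 ± 0.18 (adjusted p = 0.0272), and Lce3e (1.70), Lce3d (1.19) and Lce3b (1.16) went the same way. S100a9, a subunit of the calprotectin alarmin, was at 11.44 and 10.96 against 11.27, 11.97 and 11.96, a difference of 1.18 ± 0.07 (adjusted p = 0.0261). Its partner S100a8 had 0.96 (adjusted p = 0.0513). The protease inhibitor Slpi rose by 1.38 on its brightest probe and had 0.41 on its other one. Saa3, an acute-phase protein, rose by 2.11. S100a7a passed the test, but was above background only on the untreated Tlr7-/- array of the 5, so no size is given.

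In 14 of the 15 rises of this list the response of Tlr7-/- was the lowest of the 5 genotypes. The untreated Tlr7-/- array was the highest of the untreated arrays in 12 of them and the imiquimod Tlr7-/- array the lowest of the imiquimod arrays in 8, ranks that the call partly fixes. In 5 both genotypes of the other slide responded above the rest. Of 14 genes of the neutrophil list 10 were positive and 4 negative, with a median of 0.39 and 8 at an unadjusted p under 0.05 in limma (34.4% of all genes). S100a9 and Cxcr2 (1.37) rose (14.3%, against 2.57% of all genes), and Csf3r (-1.05) fell (7.14%, against 2.02%). Csf3r was not called after 75th percentile scaling (-0.82), without the filter on dim probes or by the median over probes. Ly6g had 0.38 and Lcn2 -0.63, both short of the test.

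**Figure D4:**
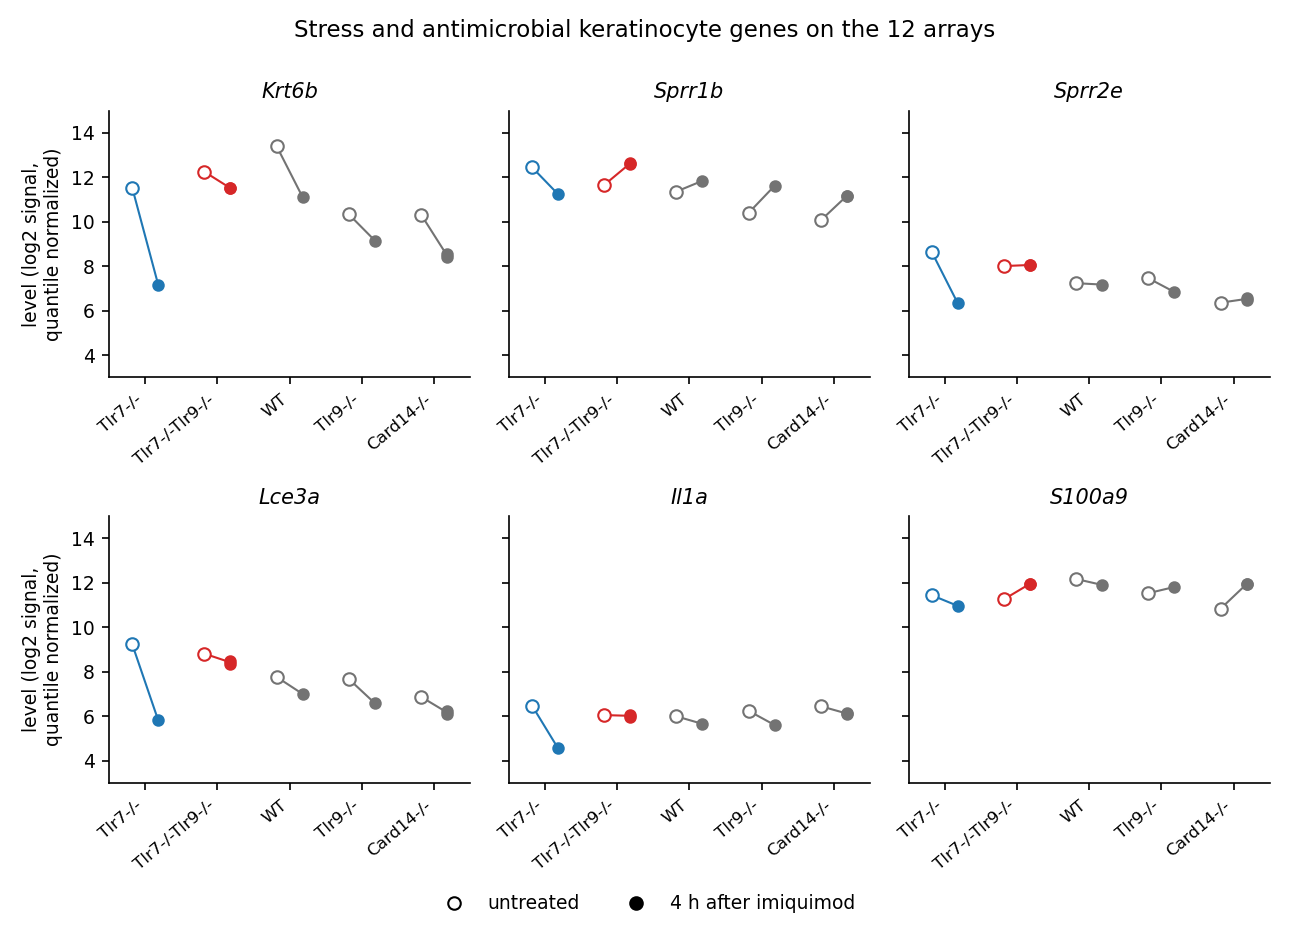
Levels of 5 epidermal stress genes and Il1a on the 12 arrays as log2 signal, with open circles for untreated and filled circles for imiquimod arrays and lines joining group means. In Tlr7-/- (blue) each falls from untreated to imiquimod, Krt6b from 11.53 to 7.16, whereas in Tlr7-/-Tlr9-/- (red) the change is smaller (Krt6b from 12.25 to 11.52 and 11.50) or upward (Sprr1b from 11.66 to 12.61 and 12.65).

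Genes of ordinary epidermal differentiation leaned higher by small amounts. Of 44 cornified envelope and differentiation genes 38 were positive and 28 had an unadjusted p under 0.05, but 2 rose, with a median of 0.34. Klk7, a protease that sheds corneocytes, was at 11.99 and 10.99 in Tlr7-/- and at 11.30, 12.21 and 12.12 in Tlr7-/-Tlr9-/-, moving in opposite directions (difference 1.86 ± 0.09, adjusted p = 0.0245). Dsc1, a desmosomal cadherin of the upper epidermis, had 1.04 on the probe used, 0.92 with no call after normexp, and 0.20 to 0.64 on its others. Involucrin (Ivl, 0.54), loricrin (Lor, -0.20), Krt10 (0.01) and Krt14 (0.11) did not reach the size limit.

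Among epithelial signals, Il1a, an alarmin cytokine released by damaged keratinocytes and read at 2 129125994 to 129126053, was at 6.48 and 4.56 in Tlr7-/- and at 6.06, 6.08 and 5.97 in Tlr7-/-Tlr9-/-. The imiquimod Tlr7-/- array was the one low value among the 5, and the difference was 1.88 ± 0.11 (adjusted p = 0.0264). After normexp it was 0.83 and no longer passed, and in the deposited table it was 1.20. It was the only one of 26 genes of the IL-1, IL-36 and IL-20 families to pass, with the IL-36 gamma gene Il1f9 at 0.51 and Il1b at 0.83 on the probe used and 3.96 on its other one. Of 7 ligands of the EGF receptor, which drive keratinocyte repair, Areg and Epgn rose. Areg was at 6.57 and 6.70 against 5.17, 6.96 and 7.13, so the genotypes differed before imiquimod and hardly after it (difference 1.74 ± 0.17, adjusted p = 0.0366). Epgn was likewise higher untreated in Tlr7-/-, with a difference of at least 2.42-fold. Neither ligand passed after normexp background correction (0.996 for Areg and 0.51 for Epgn), where 0 of the 7 did (5 of 7 at an unadjusted p under 0.05 in the quantile-normalized fit), and Epgn did not in the deposited table (0.94).

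Chemokines split. Ccl20, which draws CCR6-bearing cells, was at 7.22 and 11.22 in Tlr7-/- and at 6.43, 11.52 and 11.46 in Tlr7-/-Tlr9-/-. It rose strongly in both genotypes, by 3.99 and 5.06, with most of their difference of 1.07 ± 0.08 (adjusted p = 0.0301) in the untreated arrays; after normexp (0.83) and in the deposited table (0.98) it fell short of the size limit. Ccl3, a chemokine made by activated myeloid cells and read at 11 83461358 to 83461417, was at 4.67 and 7.91 in Tlr7-/- and at 4.54, 4.88 and 4.69 in Tlr7-/-Tlr9-/-. Only the imiquimod Tlr7-/- array was high, and the difference was -2.99 ± 0.16 (adjusted p = 0.0252). After normexp it was -1.66 and in the deposited table -1.94, both still called. Ccl3 also responded in WT (1.48), Tlr9-/- (1.39) and Card14-/- (2.07). Its close relative Ccl4 was at or near background on the 5 arrays and gives no size. Of 24 monocyte and lymphocyte chemokines these were the only 2 called, and the neutrophil attractant Cxcl1 responded by 3.74 and 4.35, a difference of 0.61 (adjusted p = 0.0652). Of 17 monocyte and macrophage genes 14 were negative, with a median of -0.31 and 11 at an unadjusted p under 0.05 in limma (34.4% of all genes). Ccr2, the receptor of inflammatory monocytes, went the other way and was the only call, rising by 1.30, with 0.97 and no call after normexp.

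The interferon programme, the best known output of these receptors, was flat in both genotypes. Of 39 interferon-stimulated genes limma called 0, while 10 had an unadjusted p under 0.05, a smaller share than the 34.4% of all genes, and 3 an adjusted p under 0.05 with a difference under 1. The median difference was 0.00, with a median response of -0.13 in Tlr7-/- and -0.26 in Tlr7-/-Tlr9-/-, against 1.30 in WT. Ifit1, an antiviral RNA-binding protein, was at 6.40 and 5.66 in Tlr7-/- and at 6.35, 5.81 and 5.80 in Tlr7-/-Tlr9-/-. Its difference of 0.19 had a 95% interval of 0.01 to 0.38. Isg15, a ubiquitin-like modifier, was at 10.36 and 10.37 against 10.35, 9.88 and 9.88, a difference of -0.47 with an interval of -0.67 to -0.28. The intervals cover the spread between arrays only, and exclude a difference of 1 for these 2 genes.

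GTPases of the interferon-gamma type and ligands of CXCR3 leaned lower, with 13 of 15 negative, a median of -0.54 and 0 called by limma (7 at an unadjusted p under 0.05). Igtp was at 9.96 and 9.78 in Tlr7-/- and at 10.31, 9.17 and 9.25 in Tlr7-/-Tlr9-/- (difference -0.93, adjusted p = 0.0346, under the size limit). Cxcl10 was at 6.70 and 6.41 against 7.34, 6.89 and 6.83, a difference of -0.19. Of 23 genes of the endosomal receptors and their adaptors, Tlr7 itself and Traf6 were the only 2 called, while Myd88 (0.14), Unc93b1 (-0.47) and Irf7 (0.01) did not pass. Traf6, a ubiquitin ligase of the pathway, fell by 1.27 on its brightest probe, while its other probes ran from -2.57 to 0.59, so the gene has no single direction.

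Early response genes had 1 call in each list (3.03% and 2.94%), against 4.59% of all genes and 2.95% of named genes. A single call is too few for a statement on frequency. Of 33 NF-kB early response genes Il1a alone passed (median 0.11), and of 34 immediate early genes Dusp2, a phosphatase of MAP kinases, alone did (1.03, and 0.93 with no call after normexp; median 0.18). Of the 34, 24 were positive and 17 had an unadjusted p under 0.05. Fos responded by 1.32 in Tlr7-/- and 2.03 in Tlr7-/-Tlr9-/-, a difference of 0.71 that lay under the size limit. Tnf, a master inflammatory cytokine, had 0.40 on the probe used and 1.04 on its other one.

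**Figure D5:**
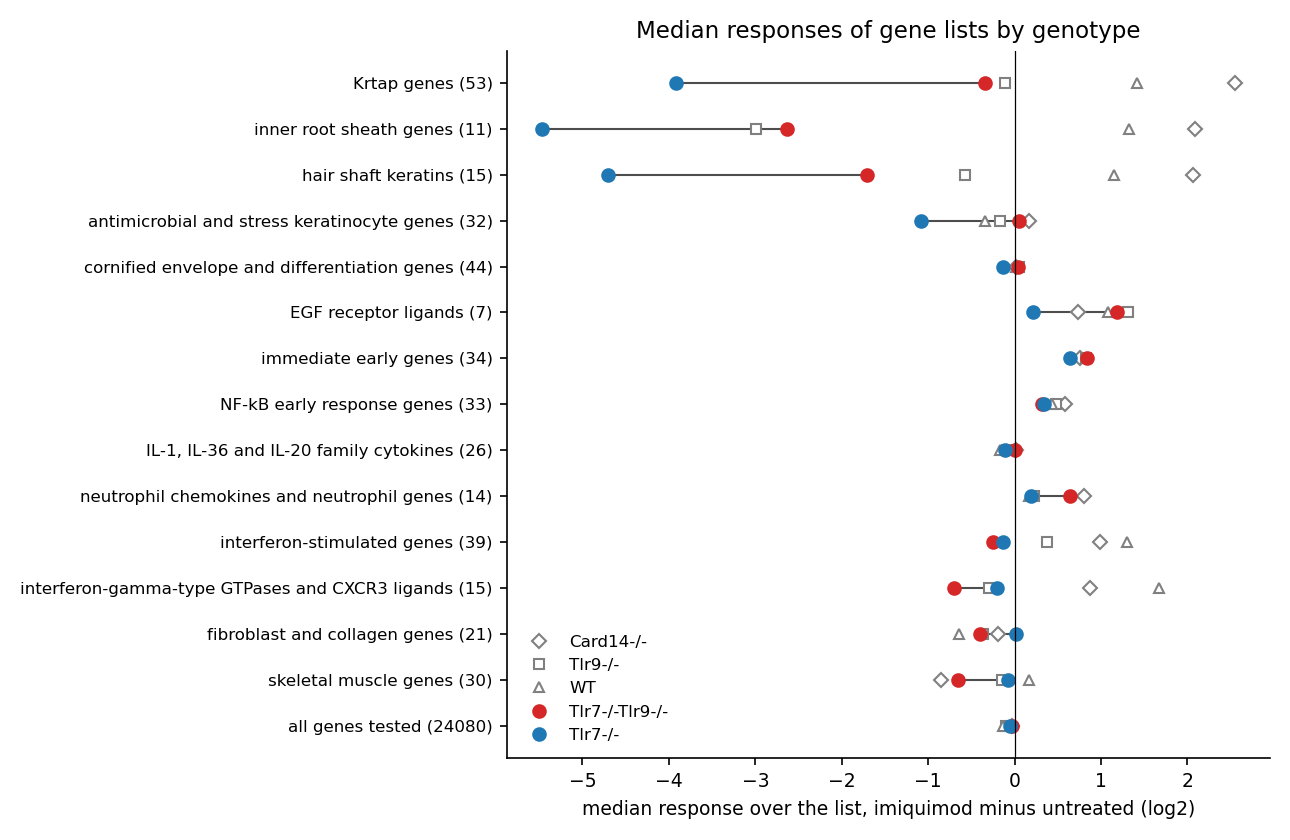
Median response (imiquimod minus untreated, log2) of 14 gene lists and of all genes in the 5 genotypes, with the number of genes tested in parentheses and a line joining Tlr7-/- (blue) and Tlr7-/-Tlr9-/- (red). The gap between the 2 is widest for hair genes (-4.71 against -1.70 for hair shaft keratins) and visible for stress keratinocyte genes (-1.08 against 0.05), while both lie near 0 for interferon-stimulated genes.

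The falls lay mostly in the imiquimod arrays. Mob3b, a MOB-family kinase regulator, was at 6.41 and 8.64 in Tlr7-/- and at 6.69, 6.01 and 6.19 in Tlr7-/-Tlr9-/-, with the imiquimod Tlr7-/- array alone high (-2.81 ± 0.19, adjusted p = 0.0293). Shisa3 (-1.88) and Nol4l (-1.77) had the same form, and in Mob3b and Nol4l no other genotype responded upward. Fgf2, a growth factor of fibroblasts and endothelium, was at 7.25 and 10.53 against 7.15, 8.61 and 8.68 (-1.78 ± 0.11, adjusted p = 0.0273), and had -0.34 on its other probe. Its responses were 4.53 in WT and 3.56 in Tlr9-/- but 1.47 in Card14-/-, which is the pattern of the slide. Heg1 (-1.79) shared that pattern, its other probes had -0.45 and -0.01, and it was not called by the median over its probes or without the filter on dim probes. Meg3, an imprinted long noncoding RNA, was at 11.49 and 11.89 against 11.50, 10.15 and 10.17 (-1.74 ± 0.09, adjusted p = 0.0252), again with a response of -0.98 in Card14-/- and above 0 in the other 3 genotypes. Miat (-1.59) and Dlgap2 (-1.86) had the pattern of the slide too. So did genes named in other paragraphs. Klk7, S100a9, Ccl20, Cxcr2, Ccr2, Dsc1 and Kif2c responded higher in Tlr7-/-Tlr9-/- and Card14-/- than in the other 3 genotypes. Per3, Csf3r, Ttn, Casq1 and the brightest probe of Traf6 responded lower in both. The part of the slide in these genes was not tested. Miat and Dlgap2 also depended on the processing. Neither was called without the filter on dim probes, nor was Miat by the median over its probes. Pde11a (-2.45) and Adam3 (-2.24) had most of their difference in a low untreated Tlr7-/- array, and Tsga8 (-2.07) in a high untreated Tlr7-/-Tlr9-/- array. Pde11a had -0.47 on its other probe, and -1.46 with no call by the median over its probes.

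Collagen genes leaned lower, with 3 of 21 fibroblast and collagen genes called and a median of -0.41. Col1a1, the main collagen of dermis, was at 16.02 and 17.13 in Tlr7-/- and at 16.61, 16.22 and 16.35 in Tlr7-/-Tlr9-/-, so that it went up in one and slightly down in the other (-1.44 ± 0.12, adjusted p = 0.0321), with -1.32 and -0.51 on other probes. Col5a1 (-1.31) and Col1a2 (-1.02) fell too, the latter with -0.77 and no call after 75th percentile scaling. Of 30 skeletal muscle genes 29 were negative and Ttn (-1.16) and Casq1 (-1.05) passed, the latter with no call after 75th percentile scaling (-0.997), after normexp (-0.93) and in the deposited table (-0.96). The muscle list responded by a median of -0.66 in Tlr7-/-Tlr9-/- and -0.86 in Card14-/-, against -0.07 in Tlr7-/-, -0.15 in Tlr9-/- and 0.17 in WT. The clock gene Per3 fell (-1.15), with -0.28 and no call by the median over its probes. Kif2c, a mitotic kinesin, rose at least 2.21-fold but was not called under 5 of the processing alternatives. The stress gene Chac1 rose by 1.04 and was not called after normexp (0.95) or in the deposited table (0.98).

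Markers of T cells, B cells, dendritic and Langerhans cells, mast cells, endothelium, red cells, melanocytes, Schwann cells, fat and sebaceous gland had 0 members called by limma, with list medians between -0.56 (endothelial) and 0.09 (B cell). At an unadjusted p under 0.05 there were 5 of 12, 2 of 4, 10 of 13, 8 of 11, 11 of 15, 3 of 8, 4 of 12, 4 of 14, 11 of 18 and 6 of 14 in that order, against 34.4% of all genes. In whole skin, fewer cells of a type and less RNA per cell cannot be told apart. Lists of cholesterol synthesis, respiratory chain, NRF2 target and glucocorticoid-responsive genes also had 0 called, with 10 of 23, 10 of 34, 9 of 19 and 8 of 16 at an unadjusted p under 0.05. DNA from the strain of the original knockout can persist near Tlr9. Of 213 named genes within 10 Mb of it, 4 rose and 1 fell (1.88% and 0.47%). Over all genes, named or not, those shares were 2.57% and 2.02%. In either direction 2.35% of the 213 were called, against 2.95% of all named genes.

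Other large calls came from genes below background on some arrays. Cyp2g1, an olfactory-type cytochrome P450, was at 12.09 untreated and 3.46 (below background) after imiquimod in Tlr7-/-, and at 12.08, 11.37 and 11.43 in Tlr7-/-Tlr9-/-, a difference of at least 154-fold. Defb8, a beta-defensin, was at 2.03 (below background) on the untreated Tlr7-/- array and at 13.45, 12.66, 12.89 and 12.91 on the other 4, and its response fell by at least 640-fold between the genotypes. S100a7l2 was also below background on the untreated Tlr7-/- array alone, and its response fell by at least 154-fold. Spink7, a protease inhibitor, and Slco1a1, an organic anion transporter, rose at least 19.7-fold and 17.3-fold. Slco1a1 was below background on the untreated Tlr7-/-Tlr9-/- array as well as on the imiquimod Tlr7-/- one. It was not called without the filter on dim probes. For Cyp2g1, Defb8 and S100a7l2 the call rests on 1 array, which no repeat checks, and the other 11 arrays were above background.

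Whether the difference made by Tlr9 depends on Tlr7 was tested as the difference above minus the same difference with Tlr7 present (the Tlr9-/- response minus the WT response), and the 2 share no array. In limma 220 genes (0.914%) were higher and 66 (0.274%) lower. This contrast contains the response difference above, so it is no separate support for genes ranked on that difference. The sex-linked difference between the Tlr7-/- pools and the slide of the treated double knockout also enter it. Hair genes led, with Krt27 at 8.14 ± 0.16 (adjusted p = 0.00604). For Krt27, absence of Tlr9 went with a difference of 3.21 without Tlr7 and of -4.94 with it. Krt28 (7.92), Krtap19-3 (7.81) and Krtap16-3 (7.43) followed among named genes above background on all 9 arrays of this contrast. Among interferon-stimulated genes 3 of 39 were higher, with Ifit1 at 2.18, Mx2 at 2.09 and Isg15 at 1.84. For Ifit1 the difference was 0.19 without Tlr7 and -1.99 with it. Cxcl10 (2.89) and Iigp1 (2.39) did likewise. The median over interferon-stimulated genes was 0.00 without Tlr7 and -0.97 with it. Under the same condition the largest negative values of genes whose probes had one sign were Chil3, a chitinase-like protein of macrophages (-2.08), Meg3 (-2.02), Mdfi, an inhibitor of myogenic factors (-1.85), and Cyp26a1, which degrades retinoic acid (-1.80). Larger ones came from genes below background on the untreated Tlr7-/- array, Defb8 (-10.18), Eif2s3y (-8.44), Uty (-5.41), S100a7l2 (-4.82) and Ddx3y (-4.37), whose sizes have no exact value. Without either of the repeat Tlr7-/-Tlr9-/- arrays limma called 0 genes here (5094 and 5233 at an unadjusted p under 0.05).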

How the data were processed

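RNA of 12 pools of mouse ear skin was measured on single-colour Agilent arrays (200 ng of RNA per array). Per the file headers, spot intensities were read and background-corrected by the authors with Agilent Feature Extraction 10.7.3.1, with probe positions on mm9. Version 10.5.1.1 and limma are named in the submitters' processing notes. A table of log2 values that the authors deposited, background-subtracted and normalized per the labels, served as an alternative. Here, log2 processed signals were quantile normalized, spots of a probe averaged, 235 probes with outlier marks left out, and a probe kept where 2 or more of the 12 arrays had it well above background. A gene was read on its brightest probe, and names came from RefSeq (32994 of 56605 probes by accession, 10224 by symbol, 520 by synonym, 12867 keeping the file's name). limma 3.58.1 (R 4.3.3) fitted 10 group means to all 12 arrays, leaving 2 residual degrees of freedom, with contrasts, eBayes and Benjamini-Hochberg adjustment over 24080 genes. Python 3.11.15, pandas 2.3.3 and matplotlib 3.10.9 did the rest. Tested on simulated data, the fit called 54 of 100 genes changed by 1.5 log2 and 69 of 100 changed by 2, with 7 false calls. The simulated noise was the spread between repeat arrays, with no variation between pools or slides. These counts therefore do not tell how many calls in the real data come from such variation.

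Named genes are the targeted genes, the 12 largest rises and the 12 largest falls among named genes above background on all 5 arrays with probes of one sign, the 4 largest lower bounds in each direction, the 4 largest calls and 2 largest other values of each list, and the extremes of the test of dependence on Tlr7. Others named were chosen after their values were seen. The comparison, the members and the lists were chosen with earlier results of these data known. For a gene below background on every array of a group, "at least" folds set the brighter group against the lowest signal well above background. A fold from normalized log2 values assumes equal overall signal. The number of arrays limits the precision, and nothing in the labels says that repeat arrays came from separate pools. Alternatives were the 75th percentile scaling, normexp correction, the deposited table, probe filters and summaries, the arrays fitted and each repeat array left out.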

Additional observations from a re-analysis of the deposited data

Results flagged for a closer look

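The response to imiquimod differed between Tlr7-/-Tlr9-/- and Tlr7-/- in 618 genes upward and 487 downward, by the limma contrast of the responses. The difference that goes with absence of Tlr9 itself differed between mice without and with Tlr7 in 220 genes upward and 66 downward. Among named genes above background on all 9 arrays and with probes of one sign, its largest positive values were those of Krt27 (8.14), Krt28 (7.92), Krtap19-3 (7.81) and Krtap16-3 (7.43), all made in hair follicles. The largest negative ones were those of Chil3 (-2.08), Meg3 (-2.02), Mdfi (-1.85) and Cyp26a1 (-1.80). No group had 4 or more arrays, so single arrays standing apart were not looked for by a test.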

How the results depend on the processing

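Counts of calls moved most with the arrays that set the spread. Rises of 618 and falls of 487 became 0 and 0 with only the 5 arrays (6798 at an unadjusted p under 0.05), 0 and 0 with the spread of the WT, Tlr9-/- and Card14-/- responses (960), and 0 to 0 without either repeat array (6654 and 6759), all in limma. They were 377 and 321 after normexp, 1236 and 1218 by adjusted p alone, and falls were 884 with no filter on dim probes. On the imiquimod arrays, higher and lower genes were 326 and 977 after 75th percentile scaling, 180 and 435 in the deposited table, and 0 to 0 without either repeat array (8160 and 8265 unadjusted). Genes higher on the untreated arrays were 14 without either. Dependence on Tlr7 gave 433 and 208 in the deposited table, 37 lower after 75th percentile scaling, and 0 to 0 without either repeat array. The median of hair shaft keratins was 2.59 after normexp, 2.76 in the deposited table and 2.50 for genes above background on all 5 arrays. That of inner root sheath genes was 2.66 after 75th percentile scaling and 2.58 to 2.82 without a repeat array. That of stress keratinocyte genes was 1.16 after 75th percentile scaling, 0.95 after normexp, 0.93 above background on all 5 arrays and 0.93 by the median over probes. That of interferon-stimulated genes was -0.10, -0.042 and -0.025 after 75th percentile scaling, in the deposited table and by the median over probes, and -0.023 to -0.0042 without a repeat array. That of EGF receptor ligands was 0.35, 0.23, 0.17, 0.15 and 0.19 (75th percentile, normexp, deposited, all 5 arrays, median over probes). That of collagen genes was -0.24, -0.38 and -0.37 (75th percentile, normexp, deposited) and -0.41 to -0.37 without a repeat array. By the median over probes, gene Traf6 reversed to 0.27 and gene Trpm1 to 1.01. The cause of these moves was not tested, beyond the degrees of freedom lost with fewer arrays. No paired analysis was possible because the groups share only replicate number 1. A slide term could not be fitted, since the only arrays of the second slide are those of 2 imiquimod groups.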
